A study of Mus musculus with 12 samples.

Results

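The 10 genes examined here were the lung lineage transcription factors Nkx2-1, Foxa1 and Foxa2 and 7 genes of differentiated lung epithelium, namely Sftpc, Sftpb, Sftpa1, Sftpd, Scgb1a1, Napsa and Abca3. They were taken by symbol from a table of 24458 rows, in which each was 1 row. The values were FPKM, that is, fragment counts scaled to transcript length and library depth, so levels of different genes are compared per length. Nkx2-1, Foxa1, Foxa2, Sftpc and Abca3 reached 1 FPKM in at least 3 of the 12 libraries and were tested. Sftpb, Sftpa1, Sftpd, Scgb1a1 and Napsa stayed below this filter, so they are given by their values. Gene positions are those of the table, which do not match GRCm38 and were read as mm9, a reading that was not checked against an mm9 annotation.

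The libraries came from 4 untreated mouse small cell lung cancer (SCLC) lines of the RP model, which carries Rb1 L/L and Trp53 L/L conditional alleles on a mixed background of C57Bl/6, Balb-c and S129. In the mice, an adenovirus delivered Cre under the CMV promoter, which is not restricted to 1 lung cell type, by intubation into the trachea, and both classes of cells lost Rb1 and Trp53. The SMC lines (SCLC metastasizing cells, SMC#1 and SMC#2) were sorted from tumors by high NCAM with little or no CD44, and the paired Non-SMC lines (Non-SMC#1 and Non-SMC#2) by low NCAM with high CD44. The study's data statement lists other samples, SMC carrying a control or a TAZ construct, for this deposit, and the sample labels were followed here. Each line had 3 libraries, and the sources used here do not say whether these were separate cultures or whether a line was 1 clone. The p-values therefore rest on the spread of libraries within 4 lines, and that spread may be technical.

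Nkx2-1 encodes the homeodomain factor TTF-1, which specifies lung and thyroid from foregut endoderm and is later kept in alveolar type 2 cells, club cells and neuroendocrine cells. Foxa1 and Foxa2 encode forkhead pioneer factors of endoderm, which act together with Nkx2-1 in the developing lung. In alveolar type 2 cells these factors drive genes for surfactant, the lipid and protein film that lowers surface tension in the alveoli. TTF-1 is also a diagnostic marker of human SCLC, whereas surfactant proteins are not typical of that tumor.

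Depth and sorting genes were checked first. Low values of 3683 genes with 1 transcript gave an estimate of 28300000 to 43700000 fragments per library at a fragment length of 300 bases. Cd44 lay at 0.0760 to 0.229 FPKM in SMC and 76.0 to 88.5 in Non-SMC, in the direction of the sort. Ncam1 lay at 32.1 to 37.6 FPKM in SMC and 41.0 to 52.6 in Non-SMC, against the direction of the sort. The sort used antibodies to the NCAM and CD44 proteins, whereas these values are RNA, so the measures are unlike. Transcripts of the deleted genes were still counted, with Rb1 at 2.90 to 4.16 FPKM in SMC and 0.738 to 0.982 in Non-SMC and Trp53 at 6.95 to 7.79 and 2.94 to 3.70. Values per gene include exons outside the deleted part, so these levels check nothing about the deletion. Of 14 markers of pulmonary neuroendocrine cells, 13 were higher in SMC and 1, Ncam1, was lower (median log2 difference 5.67). Among all rows tested 44.7% were called higher, and 8 of the 14 passed the filter through SMC libraries alone.

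Nkx2-1 was abundant in both SMC lines and low in both Non-SMC lines. Its levels were 93.2, 91.6 and 87.6 FPKM in the SMC#1 libraries and 224, 242 and 213 in the SMC#2 libraries. They were 1.13, 1.31 and 1.27 FPKM in Non-SMC#1 and 0.653, 0.301 and 0.463 in Non-SMC#2. All 6 SMC libraries lay above all 6 Non-SMC libraries, a separation that 28.0% of the 13122 rows tested also showed. On the log2(FPKM + 1) scale the SMC level exceeded the Non-SMC level by 6.32 (SE 0.06, limma adjusted p = 2.15e-17), where 87.1% of all rows tested were called and 44.7% were called higher in SMC. In these bulk libraries, fewer cells of a type and less RNA per cell cannot be told apart.

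The Nkx2-1 levels of the 4 lines did not overlap. The mean was 226 ± 15.0 FPKM (SD, n = 3) in SMC#2, 90.8 ± 2.89 in SMC#1, 1.24 ± 0.0926 in Non-SMC#1 and 0.473 ± 0.176 in Non-SMC#2. SMC#2 was 2.49-fold above SMC#1 (log2 difference -1.31 for SMC#1 against SMC#2, SE 0.085, adjusted p = 3.34e-08), in a comparison where 56.8% of rows were called. Non-SMC#1 was 2.61-fold above Non-SMC#2 (log2 difference 0.61, adjusted p = 4.87e-05, or 1.27 with a pseudocount of 0.1), in a comparison where 57.3% were called. The ratio of means was 73.5 in pair 1 and 479 in pair 2. The within-pair differences were 5.36 (SE 0.085) and 7.28 (SE 0.085), and pair 1 minus pair 2 was -1.92 (SE 0.12, adjusted p = 2.07e-08). That difference between pairs was called for 60.6% of all rows. By its mean, Nkx2-1 ranked 135 of 24458 rows in SMC#2 and 603 in SMC#1, against 10591 in Non-SMC#1 and 11900 in Non-SMC#2.

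**Figure D1:**
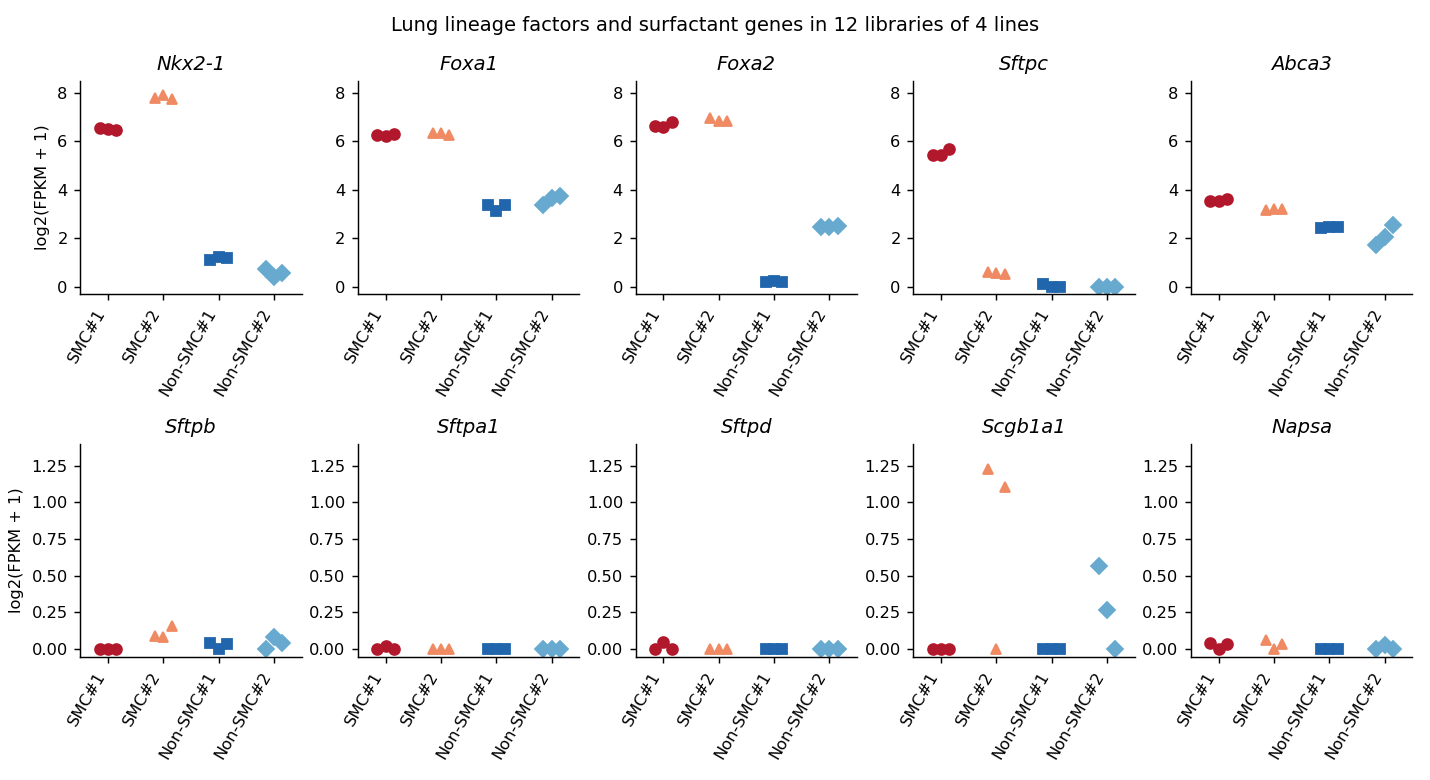
Levels of the 10 genes in each of the 12 libraries on the log2(FPKM + 1) scale, 1 point per library and 3 libraries per line, with a wider axis range in the upper row than in the lower row. Nkx2-1, Foxa1 and Foxa2 were high in both SMC lines, Sftpc was high in SMC#1 alone, and the 5 genes of the lower row did not exceed 1.35 FPKM in any library.

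Foxa1 was also higher in SMC, and unlike Nkx2-1 it was at several FPKM or more in both Non-SMC lines. It lay at 75.6, 73.7 and 77.4 FPKM in SMC#1 and at 80.7, 80.2 and 75.1 in SMC#2. In the Non-SMC#1 libraries Foxa1 was at 9.22, 7.83 and 9.28 FPKM, and in the Non-SMC#2 libraries at 9.28, 11.7 and 12.3. The classes did not overlap, with SMC above, as for 28.0% of all rows tested. The 2 lines of each class did overlap. The SMC mean was 7.77-fold the Non-SMC mean (log2 difference 2.85, SE 0.067, adjusted p = 1.2e-13), with 2.97 in pair 1 and 2.73 in pair 2. The difference between the pairs was 0.24 (SE 0.134, adjusted p = 0.135) and was not called, except without Non-SMC#2 replicate 1, where it was 0.355 (adjusted p = 0.00744). SMC#1 against SMC#2 was -0.06 (SE 0.095, adjusted p = 0.644), a miss of the threshold that does not show equal levels. Non-SMC#1 against Non-SMC#2 was -0.30 (SE 0.095, adjusted p = 0.016), and the call was lost on leaving out Non-SMC#1 replicate 2, Non-SMC#2 replicate 2 or Non-SMC#2 replicate 3 (adjusted p = 0.0824, 0.0607 and 0.0546).

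Foxa2, at chromosome 2, 147868613 to 147872705, was higher in SMC in both pairs, and the Non-SMC lines differed widely from each other. Its levels were 99.2, 94.8 and 110.1 FPKM in SMC#1 and 123.4, 115 and 115 in SMC#2, without overlap. In Non-SMC#1 they were 0.133, 0.175 and 0.143 FPKM, an estimated 6.9 to 10.3 fragments per library. In Non-SMC#2 they were 4.46, 4.50 and 4.72 FPKM, an estimated 244.3 to 343.8 fragments. Non-SMC#2 held 30.3-fold more Foxa2 RNA than Non-SMC#1 (log2 difference -2.27 for Non-SMC#1 against Non-SMC#2, SE 0.066, adjusted p = 8.68e-12), with no overlap between them. SMC exceeded Non-SMC by 5.44 (SE 0.046, adjusted p = 9.69e-18), by 6.47 in pair 1 and by 4.42 in pair 2, and the difference between the pairs was 2.06 (SE 0.093, adjusted p = 8.16e-10). The ratio of means was 674 in pair 1 and 25.8 in pair 2. With a pseudocount of 0.1 the difference between the pairs became 4.003 and that between the Non-SMC lines became -4.22. SMC#1 against SMC#2 was -0.22 (adjusted p = 0.0133), a call lost without SMC#1 replicate 2 (adjusted p = 0.0598) or without SMC#2 replicate 1 (adjusted p = 0.0565).

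The Foxa2 and Nkx2-1 differences thus had opposite orders in the pairs. Nkx2-1 was lower in Non-SMC#2 than in Non-SMC#1, and Foxa2 was higher. In SMC#1 the 3 factors lay at 75.6 (Foxa1), 90.8 (Nkx2-1) and 101 FPKM (Foxa2) on average, and in SMC#2 at 78.7 (Foxa1), 118 (Foxa2) and 226 (Nkx2-1). In Non-SMC#1 the order was 0.1504 (Foxa2), 1.24 (Nkx2-1) and 8.78 (Foxa1), and in Non-SMC#2 it was 0.473 (Nkx2-1), 4.56 (Foxa2) and 11.1 (Foxa1), so Foxa1 was the most abundant of the factors in both Non-SMC lines and the least abundant in both SMC lines.

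**Figure D2:**
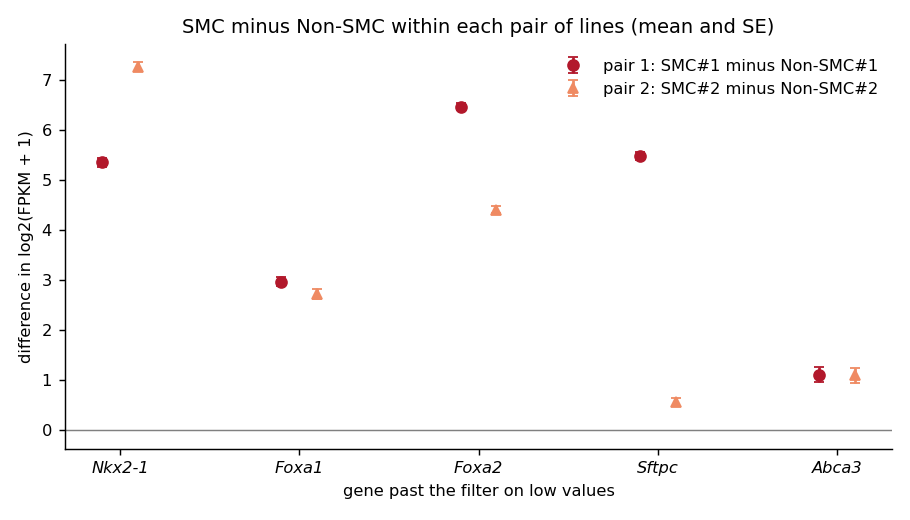
SMC minus Non-SMC within each pair of lines for the 5 genes past the filter, as a mean difference in log2(FPKM + 1) with its standard error from limma. The pairs lay apart for Nkx2-1 (5.36 and 7.28), Foxa2 (6.47 and 4.42) and Sftpc (5.49 and 0.57), and close together for Foxa1 (2.97 and 2.73) and Abca3 (1.11 and 1.10).

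The upstream sequences of Nkx2-1 and Foxa1 are shown because both genes differed between the classes and Foxa1 held a forkhead match. Both are the 250 bases before the RefSeq start on GRCm38.p6, minus strand, written 5′ to 3′, with motif matches in capitals, and Nkx2-1 lies at chr12:56536909-56537158 and Foxa1 at chr12:57546112-57546361.
Nkx2-1: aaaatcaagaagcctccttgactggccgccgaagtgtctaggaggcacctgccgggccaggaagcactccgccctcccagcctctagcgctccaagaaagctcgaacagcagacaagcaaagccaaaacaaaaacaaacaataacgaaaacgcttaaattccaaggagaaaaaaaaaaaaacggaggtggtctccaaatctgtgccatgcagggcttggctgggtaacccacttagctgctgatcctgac
Foxa1: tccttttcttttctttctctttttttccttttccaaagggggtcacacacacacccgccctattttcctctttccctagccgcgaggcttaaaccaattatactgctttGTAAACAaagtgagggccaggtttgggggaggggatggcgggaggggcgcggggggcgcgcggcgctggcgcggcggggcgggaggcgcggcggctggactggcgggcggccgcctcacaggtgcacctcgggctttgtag

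The motifs searched on both strands were TNAAGTG and CTCAAG for NK2 factors such as TTF-1, and TGTTTAC and TATTTAC for forkhead factors, and the NK2 motifs can overlap each other, which no match shown here did. The capitals in Foxa1 are GTAAACA, the reverse complement of TGTTTAC, at 141 to 135 bases before the start. TGTTTAC was in 3.17% and TATTTAC in 2.73% of 32851 RefSeq mouse promoters of the same length. None of the 4 motifs was in the 250 bases of Nkx2-1 or Abca3. Foxa2 has 3 RefSeq starts, and 1 of the 3 windows held CTTGAG, the reverse complement of CTCAAG, at 187 to 182 bases before that start. CTCAAG was in 13.3% and TNAAGTG in 10.1% of all promoters. A match describes letters only and is not evidence of binding, and these windows leave out distal enhancers.

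Nkx2-1 and Foxa1 lie on the same chromosome, 1003723 bases apart. In the positions of the table, Nkx2-1 is at chromosome 12, 57632924 to 57637895, and Foxa1 at 58641619 to 58647108. The stretch from 1 Mb before Nkx2-1 to 1 Mb after Foxa1 held 18 rows, of which 12 passed the filter. Of these, 10 were called higher in SMC and 1 was called lower, against 44.7% and 42.4% of all rows tested. The 10 include Nkx2-1 and Foxa1, which set the stretch, and E030019B13Rik, Gm19990, Slc25a21 and 4921506M07Rik, which reached 1 FPKM in SMC libraries alone and so passed the filter through that class. Nothing is read from the count. E030019B13Rik, 42 kb from Nkx2-1, separated the classes as Nkx2-1 did, with 7.58 to 8.37 FPKM in SMC#1, 43.4 to 45.4 in SMC#2, 0.0311 to 0.0523 in Non-SMC#1 and none above 0 in Non-SMC#2 (log2 difference 4.30, adjusted p = 1.42e-17). Like Nkx2-1 it was higher in SMC#2 than in SMC#1.

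Gm19990, Mbip, Pax9 and Slc25a21 had other orders of lines than Nkx2-1. Gm19990 was at 24.8 to 29.5 FPKM in SMC#2 and at 0.367 or less in each other library. Mbip, which encodes a regulator of a MAP kinase kinase kinase, was at a mean of 27.9 FPKM in SMC#1, 58.9 in SMC#2, 6.16 in Non-SMC#1 and 14.7 FPKM in Non-SMC#2 (log2 difference 1.99, adjusted p = 1.62e-10). Pax9, a paired box factor of foregut and tooth development, was at 9.85 FPKM in SMC#1, 2.03 in SMC#2, 8.34 in Non-SMC#1 and 2.07 in Non-SMC#2, so it separated the pairs and not the classes (adjusted p = 0.225 between classes). Slc25a21, a mitochondrial carrier gene, was at 1.75 to 2.12 FPKM in SMC#1 and at 0.0997 or less elsewhere.

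The rest of the stretch differed by less than E030019B13Rik. Ralgapa1, which encodes a subunit of a Ral GTPase-activating complex and had its line means in the order of Nkx2-1, was higher in SMC by 1.55, 4921506M07Rik by 1.86, Prps1l3 by 0.97 and Mipol1 by 0.62, with adjusted p from 7.7e-12 to 1.78e-05. The Prps1l3 and Mipol1 rows overlap, and with no strand setting stated their reads cannot be told apart. Brms1l, which encodes a subunit of a histone deacetylase complex, was the row called lower in SMC (log2 difference -0.29, adjusted p = 4.53e-05). Aldoart2, Insm2, C87198, Nkx2-9, Sstr1 and Clec14a were under 1 FPKM in each library. Nkx2-9, the neighbouring relative of Nkx2-1, lay at 0.0697 to 0.235 FPKM in SMC#1, 0.116 to 0.244 in SMC#2 and 0 in the 6 Non-SMC libraries.

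**Figure D3:**
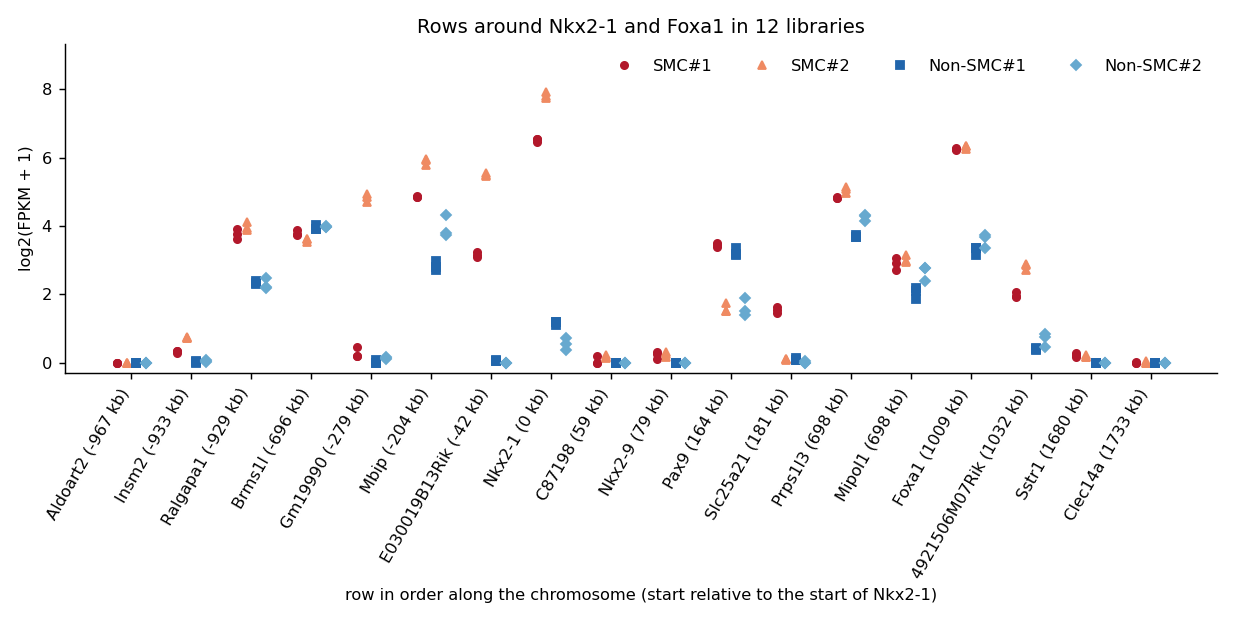
Levels of the 18 rows from 1 Mb before Nkx2-1 to 1 Mb after Foxa1 in each library on the log2(FPKM + 1) scale, in order along the chromosome with the distance of each row's start from that of Nkx2-1 in kb. Rows with SMC above Non-SMC without overlap included Nkx2-1, E030019B13Rik, Foxa1, Ralgapa1, Mbip, 4921506M07Rik and Prps1l3, as for 28.0% of all rows tested. Of these, E030019B13Rik and 4921506M07Rik reached 1 FPKM in SMC libraries alone. Gm19990 was high in SMC#2 alone, and Brms1l was lower in SMC by 0.29.

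Of the surfactant protein genes, Sftpc, which encodes surfactant protein C and is the classical marker of alveolar type 2 cells, was the one that reached 1 FPKM in any library, and it did so in SMC#1 alone. Sftpc lay at 42.8, 41.8 and 51.3 FPKM in SMC#1 and at 0.526, 0.493 and 0.428 in SMC#2. It was at 0.0762, 0 and 0 FPKM in Non-SMC#1 and listed at 0 in each Non-SMC#2 library. These values correspond to an estimated 592.0 to 915.9 fragments in SMC#1, 7.3 to 10.6 in SMC#2 and 1.1 in the single Non-SMC library above 0. Both SMC lines lay above both Non-SMC lines without overlap, as for 28.0% of all rows tested. SMC#1 exceeded SMC#2 by 93.9-fold (log2 difference 4.96, SE 0.075, adjusted p = 3.57e-14).

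The class difference in Sftpc was mostly that of SMC#1. Within pair 1 it was 5.49 (SE 0.075, adjusted p = 1.15e-15) and within pair 2 it was 0.57 (SE 0.075, adjusted p = 1.16e-05), and pair 1 minus pair 2 was 4.92 (SE 0.106, adjusted p = 8.27e-13). The mean over pairs was 3.03 (SE 0.053, adjusted p = 5.91e-15), and Sftpc passed the filter through the SMC#1 libraries alone. With the line as the unit the same difference was not called (SE 1.310, adjusted p = 0.181). With a pseudocount of 0.1 it was 5.54 over both pairs, 8.55 within pair 1 and 2.54 within pair 2. The line with more Sftpc had less Nkx2-1, with 45.3 and 90.8 FPKM on average in SMC#1 against 0.482 and 226 in SMC#2, while Foxa1 was at 75.6 and 78.7 FPKM and Foxa2 at 101 and 118.

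Rows within 100 kb of Sftpc were listed after its values were seen. Sftpc lies on chromosome 14 at 70920749 to 70923888, and 12 rows fell in this window, 9 of them past the filter. The 9 were called higher in SMC#1 than in SMC#2, but Sftpc itself set the window, and Sftpc, Lgi3 and Hr reached 1 FPKM in SMC#1 alone, so the filter fixed their direction. The other 6 rows, Bmp1, Nudt18, Phyhip, Reep4, Fam160b2 and Polr3d, are a description of a window chosen on these values, in a comparison where 36.2% of all rows were called higher. With median-ratio scaling or quantile normalization Polr3d was not called, and the share of all calls that was higher in SMC#1 was 63.8%, 51.4% with the former and 48.8% with the latter. The gene next to Sftpc, Lgi3, a secreted leucine-rich repeat protein gene that also marks alveolar type 2 cells, was at 15.2 to 16.6 FPKM in SMC#1 and 0.0463 to 0.124 in SMC#2 (log2 difference 3.97, adjusted p = 2.02e-14). Hr, a corepressor gene, was at 6.91 to 7.23 FPKM in SMC#1 and 0.649 to 0.835 in SMC#2. The others differed by less, from 0.21 for Polr3d to 1.75 for Bmp1.

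In the comparison of classes the Sftpc window was mixed, with 3 rows higher in SMC, 5 lower and 1 not called. Lgi3 was higher in SMC by 1.84, all of it in pair 1 (3.69, against -0.01 in pair 2). Bmp1, which encodes a procollagen C-proteinase and ends just before Sftpc begins, was lower in SMC, with means of 112 FPKM in Non-SMC#1, 76.2 in Non-SMC#2, 21.3 in SMC#1 and 5.63 in SMC#2 (log2 difference -2.94, adjusted p = 3.73e-14).

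**Figure D4:**
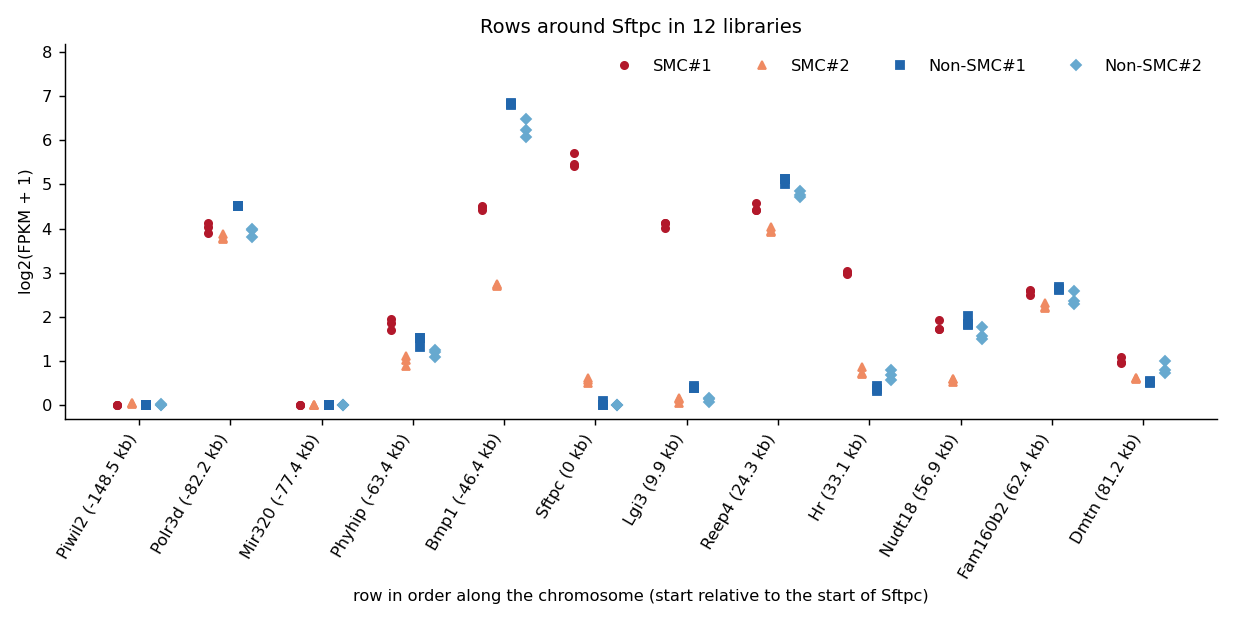
Levels of the 12 rows within 100 kb of Sftpc in each library on the log2(FPKM + 1) scale, in order along the chromosome with the distance of each row's start from that of Sftpc in kb. Sftpc, Lgi3 and Hr were high in SMC#1 alone, while Bmp1 was highest in the Non-SMC lines.

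The other surfactant protein genes were barely detected. Sftpb, at chromosome 6, 72254604 to 72264367, encodes the hydrophobic surfactant protein B needed for breathing at birth and was listed at 0 in each SMC#1 library, the line with high Sftpc. It was at 0.0649, 0.0581 and 0.114 FPKM in SMC#2, an estimated 2.8 to 4.7 fragments. Sftpb was at 0.0279, 0 and 0.0253 FPKM in Non-SMC#1 and at 0, 0.0609 and 0.0282 in Non-SMC#2. In a fit without the filter SMC#1 was below SMC#2 by 0.11 on the log2 scale (log2 difference -0.11, SE 0.024, adjusted p = 0.00348), a difference of a few fragments, and the mean over pairs was not called (0.02, adjusted p = 0.296). In that fit Sftpb was called higher in SMC within pair 2 (0.067, adjusted p = 0.0299), and the difference between pairs was called (-0.093, adjusted p = 0.0451).

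The collectin genes Sftpa1 and Sftpd encode the large surfactant proteins A and D, which bind microbes in the airspace, and they lie 35838 bases apart on chromosome 14 (41945077 to 41949662 and 41985501 to 41998487). Sftpa1 was listed at 0 in 11 of the 12 libraries and at 0.0139 FPKM in SMC#1 replicate 2, an estimated 1.0 fragment. Sftpd was at 0.0348 FPKM in the same library, also an estimated 1.0 fragment, and listed at 0 in the others. Levels up to an estimated 3 fragments per library could not be told from 0 at this depth.

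The upstream sequences of Sftpb and Sftpa1 are shown as the surfactant protein genes in which NK2 motif letters were found. Both are the 250 bases before the RefSeq start on GRCm38.p6, plus strand, written 5′ to 3′, with matches in capitals, and Sftpb lies at chr6:72304360-72304609 and Sftpa1 at chr14:41131538-41131787.
Sftpb: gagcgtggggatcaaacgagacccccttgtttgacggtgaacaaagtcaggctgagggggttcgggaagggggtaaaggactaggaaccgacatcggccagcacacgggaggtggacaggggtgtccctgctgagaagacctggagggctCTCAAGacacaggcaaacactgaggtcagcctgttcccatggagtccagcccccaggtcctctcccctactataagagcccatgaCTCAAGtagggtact
Sftpa1: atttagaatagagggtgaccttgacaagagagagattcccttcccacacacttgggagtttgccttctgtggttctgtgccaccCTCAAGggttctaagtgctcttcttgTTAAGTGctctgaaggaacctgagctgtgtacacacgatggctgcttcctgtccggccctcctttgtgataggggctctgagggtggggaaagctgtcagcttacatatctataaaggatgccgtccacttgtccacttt

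The capitals in Sftpb are CTCAAG, at 100 to 95 and again at 15 to 10 bases before the start. In Sftpa1 they are CTCAAG at 166 to 161 and TTAAGTG, a form of TNAAGTG, at 140 to 134 bases before the start. CTCAAG stood 2 or more times in 0.998% of the 32851 promoters, and at least 1 of the NK2 motifs in 21.3%. Promoter entries were matched for 6 of the 10 genes, which were Nkx2-1, Foxa1, Foxa2, Sftpb, Sftpa1 and Abca3.

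Abca3 encodes the transporter that loads phospholipid into lamellar bodies, the storage organelles of surfactant, and it was moderately higher in SMC. Its levels were 10.7, 10.7 and 11.2 FPKM in SMC#1 and 8.06, 8.29 and 8.16 in SMC#2. They were 4.38, 4.57 and 4.53 FPKM in Non-SMC#1 and 2.28, 3.14 and 4.77 in Non-SMC#2. The classes did not overlap, with SMC above, as for 28.0% of all rows tested. The widest spread was among the Non-SMC#2 libraries, which overlapped those of Non-SMC#1. The SMC mean was 2.42-fold the Non-SMC mean (log2 difference 1.11, SE 0.103, adjusted p = 2.88e-07), and the pairs differed from each other by 0.01 (SE 0.205, adjusted p = 0.962). With the line as the unit the call was lost (SE 0.241, adjusted p = 0.0558). SMC#1 was above SMC#2 by 0.37 (adjusted p = 0.0438), a call lost under 14 of 19 alternatives. Non-SMC#1 against Non-SMC#2 was 0.36 (adjusted p = 0.0503) and became 0.575 without Non-SMC#2 replicate 3 (adjusted p = 8.88e-05). Abca3 is at chromosome 17, 24488968 to 24547149, where 724 bases of it overlap D330041H03Rik, whose mean stayed at 0.657 FPKM or less in each line.

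Napsa, at chromosome 7, 51827815 to 51842216, and Scgb1a1, at chromosome 19, 9158132 to 9162446, were near 0 as well. Napsa, the gene of the aspartic protease that processes surfactant protein B, was at 0.0280, 0 and 0.0235 FPKM in SMC#1, at 0.0466, 0 and 0.0245 in SMC#2, at 0 in Non-SMC#1 and at 0, 0.0205 and 0 in Non-SMC#2. Scgb1a1, which encodes the main secretory protein of club cells, was at 1.35, 0 and 1.15 FPKM in SMC#2 and at 0.478, 0.205 and 0 in Non-SMC#2, and listed at 0 in SMC#1 and Non-SMC#1. The Scgb1a1 transcript is short, so its estimate depends on the assumed fragment length, and its highest value stood for an estimated 8.7 fragments, or 20.9 without the length correction. In Scgb1a1, 1 SMC#2 library was at 0 while the other 2 were above 1 FPKM. Without the filter neither gene differed between the classes past the threshold (Napsa 0.02, adjusted p = 0.106, and Scgb1a1 0.25, adjusted p = 0.25). Scgb1a1 was called lower in SMC#1 than in SMC#2 in that fit (-0.78, adjusted p = 0.032).

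Of the 10 genes, 5 were called higher in SMC, 0 were called lower and 5 were not tested because of low values. Among all rows tested 87.1% were called, 44.7% higher and 42.4% lower in SMC. With the line as the unit, where 18.6% of all rows were called and 8.64% were called higher, Nkx2-1 (adjusted p = 0.0124), Foxa1 (adjusted p = 0.0106) and Foxa2 (adjusted p = 0.0167) remained called and Sftpc and Abca3 did not. Within pair 1 all 5 were called higher, where 80.4% of rows were called, 43.9% higher and 36.5% lower in SMC. Within pair 2 all 5 were called higher as well, where 82.0% were called, 39.2% higher and 42.8% lower. The difference between pairs was called higher for Foxa2 and Sftpc and lower for Nkx2-1, where 38.2% of rows were called higher and 22.5% lower. In SMC#1 against SMC#2, 2 were called higher and 2 lower, where 36.2% and 20.6% of rows were. In Non-SMC#1 against Non-SMC#2, Nkx2-1 was called higher and Foxa1 and Foxa2 lower, where 25.8% and 31.5% of rows were. Nothing further is read from the count of the 5, since a gene that is high in 1 class passes the filter through that class.

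The genes whose levels followed each factor most closely over the 12 libraries were found by Pearson correlation on the log2(FPKM + 1) scale. Libraries of a line share a source, so these are descriptions of about 4 points. For Nkx2-1 they were Serpini1 (r = 0.9989), which encodes neuroserpin, Lrrc16b (0.9988) and Zfyve28 (0.9987). For Foxa1 they were Pik3c2b, Nrxn2 and Rims2, with the last of these encoding a presynaptic scaffold. For Foxa2 they were Samd10 (0.9994), Map7 and Slitrk5. For Sftpc they were BC048546 (0.9998), Fbp1, a gluconeogenic enzyme gene, and Eef1a2, a translation elongation factor gene, which was at 27.1 FPKM in SMC#1 and 0.537 in SMC#2. For Abca3 they were Pip5k1c (0.9960), Mvb12b and Ago1. Among the members themselves, Nkx2-1 had r = 0.98 with Foxa1, 0.93 with Foxa2, 0.88 with Abca3 and 0.54 with Sftpc.

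Over both pairs, other regulators of lung development were called in both directions, in shares near those of all rows. Of 25 such genes, 20 passed the filter, of which 8 were higher in SMC, 9 were lower and 3 were not called. Among all rows tested, 44.7% were called higher and 42.4% lower, so nothing is read from these counts. The median log2 difference was -0.05, against 0.024 over all rows tested. Within pair 1, 8 were higher and 12 lower (median -0.52), where 43.9% and 36.5% of all rows were. Within pair 2, 10 were higher, 8 lower and 2 not called (median 0.13), where 39.2% of all rows were higher and 42.8% lower. The epithelial factors Elf3 and Grhl2 were the furthest toward SMC. Elf3 was at 43.4 to 55.9 FPKM in SMC#1, 37.1 to 42.8 in SMC#2, 0.369 to 0.580 in Non-SMC#1 and 2.56 to 4.70 in Non-SMC#2 (log2 difference 4.18, adjusted p = 2.33e-13). Grhl2 differed by 3.79 (adjusted p = 1.46e-15), and like Foxa2 both genes were called higher in Non-SMC#2 than in Non-SMC#1 (-1.58 for Elf3 and -1.42 for Grhl2, as Non-SMC#1 against Non-SMC#2). Sox9 and Etv4, factors of the distal lung tip in the embryo, were the furthest toward Non-SMC. Both reached 1 FPKM in Non-SMC libraries alone, so they passed the filter through that class, which fixed their direction. Sox9 was at 30.7 to 32.4 FPKM in Non-SMC#1, 13.5 to 18.3 in Non-SMC#2 and 0.0345 or less in SMC (log2 difference -4.49, adjusted p = 1.03e-15), and Etv4 differed by -3.40 (adjusted p = 1.79e-14).

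Markers of alveolar type 2 cells other than the 10 genes were in part below the filter, and most of the rest passed it through Non-SMC alone. Of 20 listed, 18 were in the table and 11 passed the filter, of which 1 was higher in SMC, 8 were lower and 2 were not called (median -1.12), where 42.4% of all rows were called lower. The pairs were unlike, with 5 lower and 5 not called in pair 1 (median -0.09) and 7 lower in pair 2 (median -1.88). Of the 11, 7 reached 1 FPKM in Non-SMC libraries alone (Cd74, Il33, Chil1, Ctsh, Cxcl15, Dlk1 and Gpr116), the last 5 in Non-SMC#2 alone. Lgi3 did so in SMC#1 alone. These genes passed the filter through the class where they were high, so nothing is read from the count. The one that was higher was Lgi3, the neighbour of Sftpc. Il33, which encodes an alarmin cytokine, was at 35.4 to 42.5 FPKM in Non-SMC and listed at 0 in the 6 SMC libraries. Ctsh, which encodes a cysteine protease that processes surfactant proteins B and C, was at 56.4 to 67.2 FPKM in Non-SMC#2 and at 0.0434 or less in each other library. The defining markers Slc34a2, Lamp3, Lyz2 and Pgc were at 0.113 FPKM or less in each library. The summed level of the 18 genes was 16.3 to 17.4 FPKM in SMC#1, 15.5 to 19.3 in SMC#2, 47.7 to 52.8 in Non-SMC#1 and 122 to 140 in Non-SMC#2.

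Genes of surfactant lipid synthesis were called in both directions. Of 17, all past the filter, 6 were higher in SMC, 9 were lower and 2 were not called (median -0.12). Among all rows tested, 44.7% were called higher and 42.4% lower, so nothing is read from these counts. Pcyt1b, a gene of phosphatidylcholine synthesis, was higher by 1.46 and the phosphatidate phosphatase gene Lpin1 by 1.43, while the fatty acid desaturase gene Scd1 (-4.62) and the acyltransferase gene Agpat2 (-3.11) were lower in SMC. Scd1 was at 0.404 to 0.902 FPKM in SMC and 31.7 to 53.0 in Non-SMC, without overlap, as for 27.1% of all rows tested. Scd1 and Agpat2 reached 1 FPKM in Non-SMC libraries alone and so passed the filter through that class.

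Markers of the other epithelial cells of the lung gave mixed counts, where 44.7% of all rows were called higher in SMC and 42.4% lower. Alveolar type 1 markers had 5 higher and 5 lower in SMC of 10 past the filter, with Igfbp2 (3.70) and Akap5 (1.35) toward SMC and Cav1 (-6.79) and Emp2 (-4.67) toward Non-SMC. Club and secretory markers had 2 higher and 1 lower of 3 past the filter among 16, with Aldh1a1 (2.53) and Upk3a (1.48) toward SMC and Cbr2 (-3.63) toward Non-SMC, and Scgb3a2 at 0.606 FPKM or less. Ciliated cell markers had 7 higher and 0 lower of 7 past the filter among 16, where 44.7% of all rows were called higher, led by Rfx3 (2.02) and Mcidas (1.85), and 3 of the 7 (Dnah9, Mcidas and Rsph1) passed the filter through SMC libraries alone. Foxj1 was at 1.17 to 4.94 FPKM in SMC, and the sum of the 16 genes was 20.4 to 34.1 FPKM in SMC and 3.02 to 8.16 in Non-SMC. Of 7 basal cell markers only Dapl1 passed the filter, and it was higher in SMC by 1.03. Akap5, Aldh1a1, Upk3a and Dapl1 reached 1 FPKM in SMC libraries alone, and Cav1 and Cbr2 in Non-SMC libraries alone.

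Among markers of non-epithelial cells, those of fibroblasts past the filter were lower in SMC. The endothelial, immune and mesothelial lists had 1 gene each past the filter. The part of such cells in the results above was not tested. Of 9 fibroblast markers, 7 passed the filter and all 7 were lower in SMC over both pairs, where 42.4% of all rows were lower, led by Col1a2 (-8.83) and Col3a1 (-8.41). Dcn, which encodes the matrix proteoglycan decorin, went the other way within pair 1 (1.69, adjusted p = 4.03e-09), at 2.82 to 3.58 FPKM in SMC#1 and 0.251 to 0.331 in Non-SMC#1. The other 6 reached 1 FPKM in Non-SMC libraries alone. The summed level of the 9 was 2154 to 2206 FPKM in Non-SMC#1, 568 to 804 in Non-SMC#2 and 0.601 to 3.999 in SMC, while Tcf21 was at 0 in each library. Of 7 endothelial markers only Vwf passed the filter, through SMC libraries alone, and it was higher in SMC by 3.90, with Pecam1 at 0.137 FPKM or less. The endothelial sum was 11.9 to 18.1 FPKM in SMC and 0.261 or less in Non-SMC. Of 9 immune markers, 8 were in the table and Cd68 alone passed the filter (-0.33, and 0.03 in pair 1, where it was not called). Ptprc was at 0.0626 FPKM or less, and the summed level of the 8 was 4.97 or less in each library. Of 4 mesothelial markers only Msln passed the filter, at 100.5 to 108.6 FPKM in Non-SMC#2 and 2.06 or less elsewhere (-4.11).

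**Figure D5:**
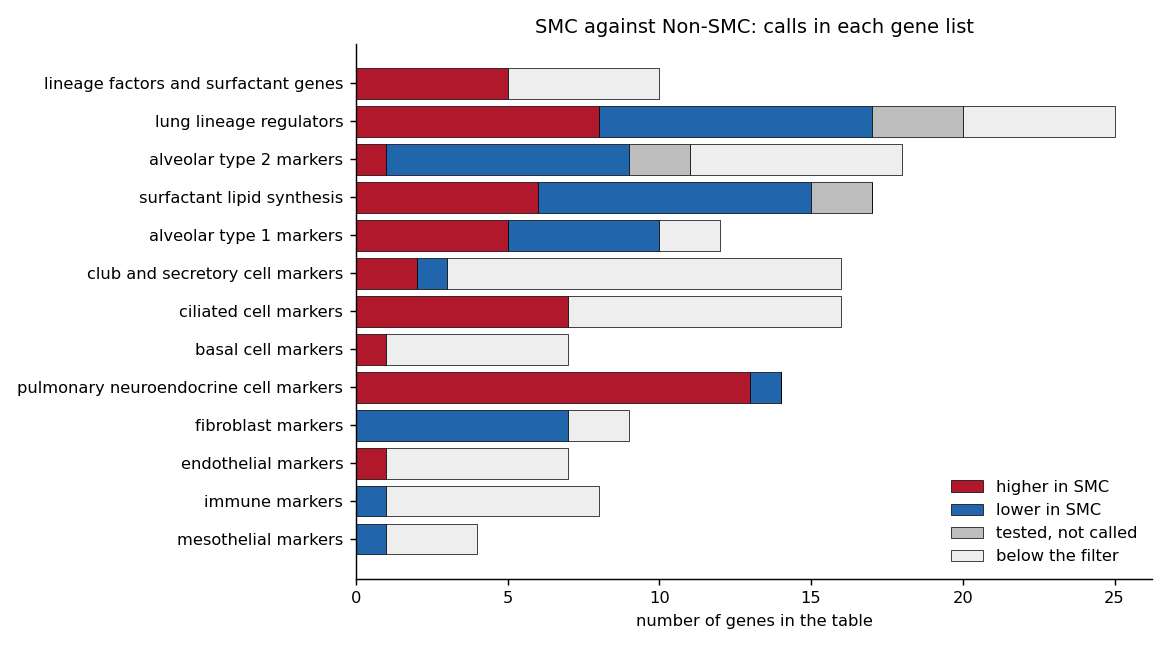
Number of genes in each list that were called higher in SMC, called lower in SMC, tested and not called, or below the filter, for SMC against Non-SMC. Neuroendocrine markers were nearly all higher in SMC (13 of 14), fibroblast markers past the filter were lower over both pairs (7 of 7, with Dcn higher in SMC within pair 1), and type 2 markers past the filter were mostly lower (8 of 11). Past the filter, 8 neuroendocrine markers reached 1 FPKM in SMC libraries alone. In Non-SMC libraries alone, 6 fibroblast and 7 type 2 markers did so.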

How the data were processed

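Total RNA of 12 libraries was sequenced by the authors as paired-end reads of 150 bases. The submitters' processing notes name STAR 2.6.1b, mm10 and DESeq2 for mapping and differential expression. The deposited values were FPKM per row and library, made with a tool not given in the sources used here. Row positions did not match GRCm38, where 2531 of 22882 rows matched by symbol overlapped the gene of that name. They were read as mm9, which no annotation used here checked. FPKM is a share of a library and 0 can be a failed estimate (4 of the 77 rows for ribosomal proteins were 0 throughout and 5 were 0 in some libraries), so such rows are described as listed at 0.

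Values were transformed to log2(FPKM + 1), a scale that understates changes of low genes. The 13122 rows that reached 1 FPKM in 3 or more libraries were fitted with limma 3.58.1 in R 4.3.3 (trend and robust options), with a mean per line and libraries of all 4 lines sharing the spread. SMC against Non-SMC averaged the differences within pair 1 and pair 2. Tests were two-sided, with Benjamini-Hochberg adjustment over all rows and a threshold of 0.05. The procedure was tested on simulated data. Since FPKM are not counts, no count test was run. Fragments per row were estimated from FPKM, transcript length and the spacing of low values, for a fragment length of 300 bases.

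The members and lists were chosen with earlier results of these data known. The genes named were the 10 members, the rows around Nkx2-1 and Foxa1, the 3 most alike rows for each member, and up to 2 called genes per list and direction. A gene that this rule would name is not reported here. Hr, Bmp1 and Polr3d in the Sftpc window, and Ctsh, Foxj1 and other markers given with a level alone, were named after their values were seen. Alternatives were the pseudocount, the filter, median-ratio scaling, quantile normalization, the line as the unit, a replicate block and leaving out each library.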

Additional observations from a re-analysis of the deposited data

Results flagged for a closer look

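The difference between the pairs was tested for each member past the filter, and it passed for 3 of 5. For Nkx2-1, pair 1 minus pair 2 was -1.92 on the log2(FPKM + 1) scale (limma adjusted p = 2.07e-08), with SMC above Non-SMC in both pairs. For Foxa2 it was 2.06 (adjusted p = 8.16e-10), with SMC above Non-SMC in both pairs. For Sftpc it was 4.92 (adjusted p = 8.27e-13), and SMC was above Non-SMC in both pairs, by 5.49 and 0.57. Of all rows, 60.6% passed this test.

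In 4 groups of 6 libraries, 1 library stood apart because the other 5 were listed at 0. These were Sftpc at 0.0762 FPKM in Non-SMC#1 replicate 1, Sftpa1 at 0.0139 FPKM and Sftpd at 0.0348 FPKM, both in SMC#1 replicate 2, and Napsa at 0.0205 FPKM in Non-SMC#2 replicate 2. Each of these values stood for an estimated 1.0 to 1.1 fragments. Chance sets a library apart by this criterion in about 1 of 20 groups of continuous values, and that rate does not apply to rows with about 1 fragment in all, so these values are not treated as unusual.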

How the results depend on the processing

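Over 690 values recomputed under alternatives, no called value changed sign. Taking each line as 1 sample (1 residual degree of freedom) gave 2441 genes called between the classes instead of 11430, and Sftpc and Abca3 lost the call. The class differences ranged from 6.28 to 7.38 for Nkx2-1, 2.79 to 3.03 for Foxa1, 5.41 to 6.66 for Foxa2, 2.93 to 5.54 for Sftpc and 1.01 to 1.28 for Abca3. Apart from the line as the unit, no alternative moved a count of called genes by over 1.5 times. Of the single-gene values, 546 kept their side of the threshold, 21 lost it and 8 gained it, 14 of the losses in Abca3 for SMC#1 against SMC#2. Between the SMC lines, 63.8% of calls were higher in SMC#1, against 51.4% with median-ratio scaling and 48.8% after quantile normalization, where Foxa1 was called (-0.25, adjusted p = 0.0261). Between the classes, these scalings left the list counts within 3 genes of those given. For the difference between pairs that share was 63.0%, 51.7% and 48.4%, and the median of all rows was 0.156, 0.013 and -0.019.

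The replicate numbers did not pair the samples, since correlations of 18 same-numbered pairs ranged from -0.38 to 0.35, 4 were over 0.1, and 4 of 12 libraries correlated best with their own number. With a replicate block 11426 genes were called between the classes, and among the members' comparisons only Abca3 in Non-SMC#1 against Non-SMC#2 changed, to a call (0.36, adjusted p = 0.0407). Depth limits the 5 genes below the filter, whose values stood for an estimated 8.7 fragments or fewer, or 20.9 or fewer without the length correction.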

Other observations

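Genes of the other tissues that use Nkx2-1 were mostly low. Of 11 thyroid genes, 2 passed the filter, and Dio1 did so through the SMC#1 libraries alone, so its class difference is mostly that of this line. Dio1, which encodes a deiodinase, was at 4.94 to 10.4 FPKM in SMC#1, 0.0841 to 0.609 in SMC#2 and listed at 0 in each Non-SMC library (log2 difference 1.82, adjusted p = 5.79e-08), and Hhex, a foregut homeobox gene, was lower in SMC by 0.33 (log2 difference -0.33, adjusted p = 0.00172). Hhex was called lower within pair 2 and was not called within pair 1. Tg, the gene of thyroglobulin, was at 0.0852 FPKM or less in each library. Of 13 ventral forebrain genes, 7 passed the filter, with 2 higher and 5 lower in SMC, where 44.7% and 42.4% of all rows were. The pairs were unlike. Within pair 1, 2 were higher and 5 lower (median -1.99), where 43.9% and 36.5% of all rows were. Within pair 2, 3 were higher, 3 lower and 1 not called (median 0.12), where 39.2% of all rows were higher and 42.8% lower. Gad1 passed through SMC libraries alone, and Lhx6 and Dlx2 through Non-SMC libraries alone. Gad1, the gene of a GABA-synthesizing enzyme, was at 12.6 to 27.4 FPKM in SMC and barely detected in Non-SMC, at 0.00890 FPKM or less (log2 difference 4.33, adjusted p = 2.03e-17), while Lhx6 (-2.31) and Dlx2 (-1.87) lay toward Non-SMC.

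Gut and liver endoderm genes were partly present. Of 23, 9 passed the filter, with 6 higher and 3 lower in SMC, where 44.7% and 42.4% of all rows were. Afp passed through the Non-SMC#2 libraries alone. Cdx2, an intestinal homeobox gene, was at 6.57 to 7.48 FPKM in SMC#1, 69.1 to 76.9 in SMC#2, 0 in Non-SMC#1 and 5.09 to 7.24 in Non-SMC#2 (log2 difference 3.20, adjusted p = 3.8e-14), so SMC#2 held the highest level of both Nkx2-1 and Cdx2. Onecut2 was higher in SMC by 2.15, and Afp (-1.17) lay toward Non-SMC, with its highest level in Non-SMC#2. Hnf4a was at 0.246 FPKM or less in each library.

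Among relatives of the members, 2 of 6 NK2 homeobox genes passed the filter. Nkx2-2 was at 4.07 to 6.30 FPKM in SMC#1 and 0.0803 or less elsewhere (log2 difference 1.24, adjusted p = 2.25e-09). Nkx2-3 was at 1.24 to 1.53 FPKM in Non-SMC#2 and 0 elsewhere (-0.62). Each passed the filter through that 1 line alone, so its class difference is that of 1 line and the filter fixed its direction. Of 5 collectin genes only Colec12 passed the filter, and it was lower in SMC (-5.39, adjusted p = 1.54e-17). Of 11 ABCA genes other than Abca3, 4 passed the filter, with Abca2 higher in SMC (0.73), Abca1 (-1.09) and Abca5 (-0.85) lower and 1 not called. Of 5 aspartic protease genes 3 passed the filter, with Bace2 (1.16) and Bace1 (0.19) higher in SMC and Ctsd (-2.11) lower. Colec12 and Abca1 passed the filter through Non-SMC libraries alone, and Bace2 through SMC#1 libraries alone.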
